A study of Rattus norvegicus with 17 samples.

Results

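The 8 genes described here are Col1a1 (ENSRNOG00000003897), Col6a3 (ENSRNOG00000019648), Fmod (ENSRNOG00000003183), Adamts2 (ENSRNOG00000061484), Slc22a6 (ENSRNOG00000018215), Scarf2 (ENSRNOG00000000288), Cdkn1c (ENSRNOG00000059500) and Tnnt2 (ENSRNOG00000033734), a group of 4 fibrous matrix genes and 4 others that varied with them, given the working name of fibrous matrix and meningeal genes. They are 8 of the 32494 genes in the expression files of rat hippocampus. They were selected on these same log2 values, because they rose and fell together in the same libraries, so the correlations among them and the list of libraries in which they were high are a description and were not tested. All 8 were among the 22664 genes that were not at 0 in every library, and all 8 had an approximate mean of at least 1 CPM (a level relative to the sum of its library, estimated here from the log2 values). Only genes with a symbol in the study's tables of cell type markers and differentially methylated genes could be picked.

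The study asked how far hippocampal profiles of untreated rats differ when 3 laboratories prepare the same kind of animal. RNA-Seq libraries came from 5 rats at Site #1 (Legacy), 6 at Site #2 (Trinity) and 6 at Site #3 (UAB), 1 library per rat. All were male SAS Sprague Dawley rats, aged 8 to 8.3 weeks on arrival, whose whole hippocampi from both hemispheres were taken 18 to 27 days later, latest at Site #3. Rats of Sites #1 and #2 came from Charles River, were housed singly and were dissected in saline, whereas rats of Site #3 came from Harlan (Envigo), were housed in pairs, ate another chow and were dissected in bubbled artificial cerebrospinal fluid, so vendor, housing, chow, age and buffer cannot be told apart at Site #3. Expression is given as the deposited log2 value of each gene and library, in which a difference of 1 is a 2-fold change. These values keep no read counts and are compressed for low genes, so differences of low genes are understated and levels of different genes cannot be compared. Between genes, the approximate CPM serves below only as a filter and to show which genes dominate a summed level. Over the 13679 genes that reached 1 CPM on average, every pair of libraries had r between 0.991 and 0.999. Neuronal, astrocyte and microglial markers were measured in every library, with summed levels of 1599 to 1853, 2048 to 2552 and 163 to 218 CPM.

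The meninges are sheets of connective tissue around the brain, and their fibroblasts secrete fibrillar collagens together with the proteoglycans and enzymes that shape collagen fibrils. Fibroblasts of this kind also follow the larger vessels into the tissue, and meningeal tissue dips into the hippocampal fissure, whereas the matrix between neurons is built mainly of hyaluronan, lecticans and tenascins and holds little fibrillar collagen. In a whole hippocampus, more cells of a type and more RNA per cell give the same rise in expression and cannot be told apart.

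Of the 8 genes, 4 had an entry in RefSeq's promoter table (build GRCr8). The windows of these genes are printed because genes that move together can be compared at their start sites. They are Fmod (chr13:48045317-48045566, plus strand), Adamts2 (chr10:35421780-35422029, plus strand), Tnnt2 (chr13:49818873-49819122, plus strand) and Col6a3 (chr9:98887061-98887208, minus strand), each ending at the base before the gene's first annotated base. The first 3 windows hold 250 bases, and that of Col6a3 was cut to the 148 bases that lie outside the annotated gene. Capitals mark matches to any of 6 motifs, searched on both strands: TATAAA (the TATA box), CCAAT (bound by NF-Y), GGGCGG (the GC box), CATTCC (the M-CAT element of muscle genes), CANNTG (the E-box) and TGANTCA (the AP-1 element).
Fmod: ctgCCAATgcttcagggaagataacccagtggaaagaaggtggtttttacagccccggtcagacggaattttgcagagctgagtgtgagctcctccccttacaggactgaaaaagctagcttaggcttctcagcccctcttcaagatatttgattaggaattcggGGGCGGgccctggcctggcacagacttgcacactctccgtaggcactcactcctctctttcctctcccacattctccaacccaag
Adamts2: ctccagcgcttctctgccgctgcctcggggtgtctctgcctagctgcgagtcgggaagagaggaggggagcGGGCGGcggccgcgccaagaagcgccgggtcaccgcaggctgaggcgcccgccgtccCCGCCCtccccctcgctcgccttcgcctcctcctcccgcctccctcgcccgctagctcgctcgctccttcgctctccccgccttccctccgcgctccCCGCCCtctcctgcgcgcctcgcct
Tnnt2: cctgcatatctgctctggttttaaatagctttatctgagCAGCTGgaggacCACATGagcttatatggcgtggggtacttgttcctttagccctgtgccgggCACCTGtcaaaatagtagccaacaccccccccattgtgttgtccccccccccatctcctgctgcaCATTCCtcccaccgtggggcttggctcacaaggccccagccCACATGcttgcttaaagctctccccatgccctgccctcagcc
Col6a3: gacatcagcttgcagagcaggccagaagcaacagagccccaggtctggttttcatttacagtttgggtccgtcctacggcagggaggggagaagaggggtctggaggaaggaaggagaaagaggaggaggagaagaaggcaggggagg

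The 4 windows shared no motif that all of them held. Fmod had 1 CCAAT match and 1 GC box, Adamts2 had 3 GC boxes, Tnnt2 had 4 E-boxes and 1 M-CAT match, and the shorter window of Col6a3 had none of the 6. Among all 33469 promoter windows of 250 bases, 34.0% held CCAAT, 30.5% a GC box, 65.5% an E-box, 12.1% an M-CAT match, 12.9% a TATA box and 6.34% an AP-1 match. The GC content was 75.6% for Adamts2, higher than in 96.9% of these windows, 56.8% for Tnnt2 and 52.8% for Fmod, against a median of 51.2%. A match is a run of letters and not a shown binding site. Col1a1, Slc22a6, Scarf2 and Cdkn1c are named only. The 8 genes lie on chromosomes 1, 9, 10, 11 and 13, and the nearest pair in gene order, Fmod and Tnnt2 on chromosome 13, had 51 annotated genes between them.

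Collagen genes were high in 4 of the 17 libraries, and these came from all 3 sites. Col1a1 encodes the alpha-1 chain of type I collagen, the main fibrillar collagen. At Site #1, Col1a1 stood at 8.78, 8.78, 8.92, 8.90 and 10.95 in replicates 1 to 5. At Site #2 it stood at 8.91, 8.88, 10.64, 8.65, 8.95 and 8.87 in replicates 1 to 6. At Site #3 it stood at 10.70, 10.07, 8.69, 8.73, 8.53 and 8.94. Thus replicate 5 of Site #1, replicate 3 of Site #2 and replicates 1 and 2 of Site #3 were high, and the lowest of them lay 1.11 log2 units above the highest of the other 13 libraries. This was the widest gap between neighbouring libraries for Col1a1, and these are the 4 libraries called high below. At Site #1 the high rat had 4.10-fold the Col1a1 of the next rat, and at Site #2 the high rat had 3.21-fold.

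Col6a3 encodes the alpha-3 chain of type VI collagen, which forms beaded microfibrils. It stood at 6.59, 6.85, 6.85, 6.84 and 7.85 at Site #1. It stood at 6.82, 6.79, 7.83, 6.71, 6.62 and 6.82 at Site #2, and at 8.33, 7.85, 6.91, 6.98, 6.81 and 7.40 at Site #3. The same 4 libraries were highest, with a gap of 0.43 to the other 13. Replicate 6 of Site #3, at 7.40, came next, and it had not stood out for Col1a1.

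**Figure D1:**
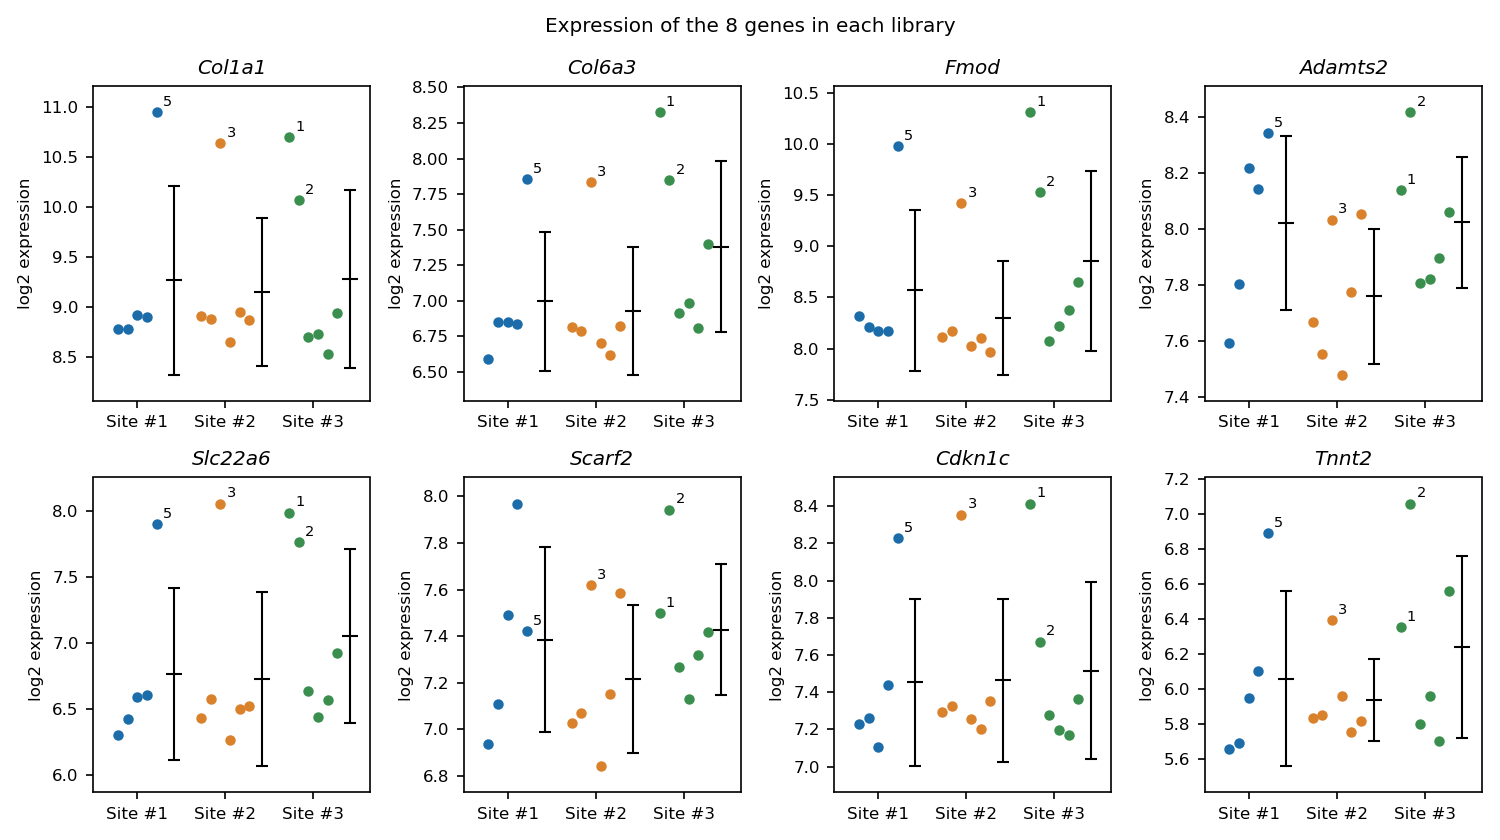
Expression of the 8 genes (log2, y axis) in each library (points) of the 3 sites (x axis), with the mean ± SD of each site beside the points. Digits give the replicate number of the 4 libraries that were high for Col1a1: replicate 5 of Site #1, replicate 3 of Site #2 and replicates 1 and 2 of Site #3 stand above all others for Col1a1, Col6a3, Fmod, Slc22a6 and Cdkn1c but not for Adamts2, Scarf2 and Tnnt2.

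Fmod and Adamts2 act on collagen outside the cell. Fmod encodes fibromodulin, a small leucine-rich proteoglycan that binds collagen fibrils. It stood at 8.32, 8.21, 8.17, 8.17 and 9.98 at Site #1. It stood at 8.11, 8.17, 9.42, 8.02, 8.10 and 7.97 at Site #2, and at 10.31, 9.53, 8.07, 8.22, 8.38 and 8.65 at Site #3. The same 4 libraries were highest, with a gap of 0.77, and the whole range of Fmod was 5.08-fold.

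Adamts2 encodes the proteinase that removes the amino-terminal propeptide of procollagens. It stood at 7.59, 7.80, 8.22, 8.14 and 8.34 at Site #1. It stood at 7.67, 7.55, 8.03, 7.48, 7.77 and 8.05 at Site #2, and at 8.14, 8.42, 7.81, 7.82, 7.90 and 8.06 at Site #3. The 4 libraries were in the upper part of its order but did not stand apart. Replicate 3 of Site #1, which was low for Col1a1, had 8.22, above replicate 1 of Site #3. The whole range was 1.91-fold, against 5.36-fold for Col1a1.

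Slc22a6, Scarf2, Cdkn1c and Tnnt2 are not matrix genes by their best known roles. Slc22a6 encodes the organic anion transporter OAT1, known from the kidney tubule. It stood at 6.30, 6.42, 6.60, 6.61 and 7.91 at Site #1. It stood at 6.43, 6.58, 8.06, 6.27, 6.50 and 6.53 at Site #2, and at 7.99, 7.77, 6.64, 6.44, 6.57 and 6.93 at Site #3. The same 4 libraries were highest, with a gap of 0.84.

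Cdkn1c encodes the cyclin-dependent kinase inhibitor p57. It stood at 7.23, 7.26, 7.10, 7.44 and 8.23 at Site #1. It stood at 7.29, 7.33, 8.35, 7.25, 7.20 and 7.35 at Site #2, and at 8.41, 7.67, 7.28, 7.20, 7.17 and 7.36 at Site #3. The 4 libraries were again highest, but the gap was 0.23, since replicate 2 of Site #3 had 7.67 and replicate 4 of Site #1 had 7.44.

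Tnnt2 encodes troponin T of heart muscle. It stood at 5.66, 5.69, 5.95, 6.10 and 6.89 at Site #1. It stood at 5.83, 5.85, 6.39, 5.96, 5.75 and 5.82 at Site #2, and at 6.35, 7.06, 5.80, 5.96, 5.70 and 6.56 at Site #3. Here replicate 6 of Site #3, at 6.56, was above the high libraries replicate 3 of Site #2 and replicate 1 of Site #3.

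Scarf2 encodes a member of the scavenger receptor family. It stood at 6.94, 7.11, 7.49, 7.97 and 7.42 at Site #1. It stood at 7.03, 7.07, 7.62, 6.84, 7.15 and 7.58 at Site #2, and at 7.50, 7.94, 7.27, 7.13, 7.32 and 7.42 at Site #3. Its highest library was replicate 4 of Site #1, which was not among the 4, and the 4 did not stand apart. Thus 5 of the 8 genes separated the same 4 libraries from the other 13, and Tnnt2, Adamts2 and Scarf2 did not. For Col1a1 this was fixed in advance, since its widest gap defined the 4 libraries. Of the 13671 other genes that reached 1 CPM on average, 167 (1.22%) had the 4 libraries above the other 13. The 8 genes were selected on these values, so their count is a description. Replicate 6 of Site #3 was above the gene's own median for all 8 genes, as were the 4 high libraries, and no other library was.

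Over all 17 libraries the 28 pairs of the 8 genes had a median r of 0.78, from 0.43 to 0.96. The libraries share the authors' normalization, and 5 of the 8 genes separate the 4 high libraries from the others. The same correlations are therefore also given over the 13 libraries other than the 4 high ones. There the median was 0.38, from 0.01 to 0.89. Col1a1, Col6a3, Fmod, Slc22a6 and Cdkn1c had r of 0.90 to 0.96 with each other over 17 libraries and 0.01 to 0.79 over the 13. Spearman's rho, which weights the high libraries less, had a median of 0.64 for the 10 pairs of these 5 genes over 17 libraries, and of 0.21 over the 13. Col1a1 and Fmod, with r of 0.95 over 17 libraries, had 0.01 over the 13, so their relation rests on the 4 high libraries. Without replicate 5 of Site #1 and replicate 1 of Site #3, the 2 libraries farthest from the median of the mean scaled value of the 8 genes, the median over the 28 pairs was 0.75.

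Adamts2 and Scarf2 kept their relation among the 13, with r of 0.87 over 17 libraries and 0.89 over the 13. Both had lower r, between 0.43 and 0.69, with Col1a1, Col6a3, Fmod, Slc22a6 and Cdkn1c. Col6a3 had r of 0.83 with Tnnt2 in both sets of libraries, and of 0.96 and 0.79 with Slc22a6. Replicate 6 of Site #3 was the highest of the 13 for Col6a3, Slc22a6, Fmod and Tnnt2, and without it r over the remaining 12 libraries was 0.40 for Col6a3 with Tnnt2 and 0.48 for Col6a3 with Slc22a6, so the values over the 13 rest on that library. For Adamts2 with Scarf2 it was 0.89. Slc22a6 also had r of 0.64 with Adamts2 and 0.60 with Scarf2 over the 13, and of 0.64 and 0.71 over the 12. The 8 genes thus held a set that separated 4 libraries and a pair, Adamts2 and Scarf2, that varied across all libraries. This split depends on the cut at the widest gap of Col1a1, which defined the 13. Over them Col1a1 ran only from 8.53 to 8.95, against 8.53 to 10.95 over the 17, whereas Scarf2 kept its whole range of 6.84 to 7.97. A smaller range can lower r by itself, and how far r fell for other reasons was not tested. The split was not clean, since Slc22a6 of the set also followed the pair outside the 4 libraries.

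**Figure D2:**
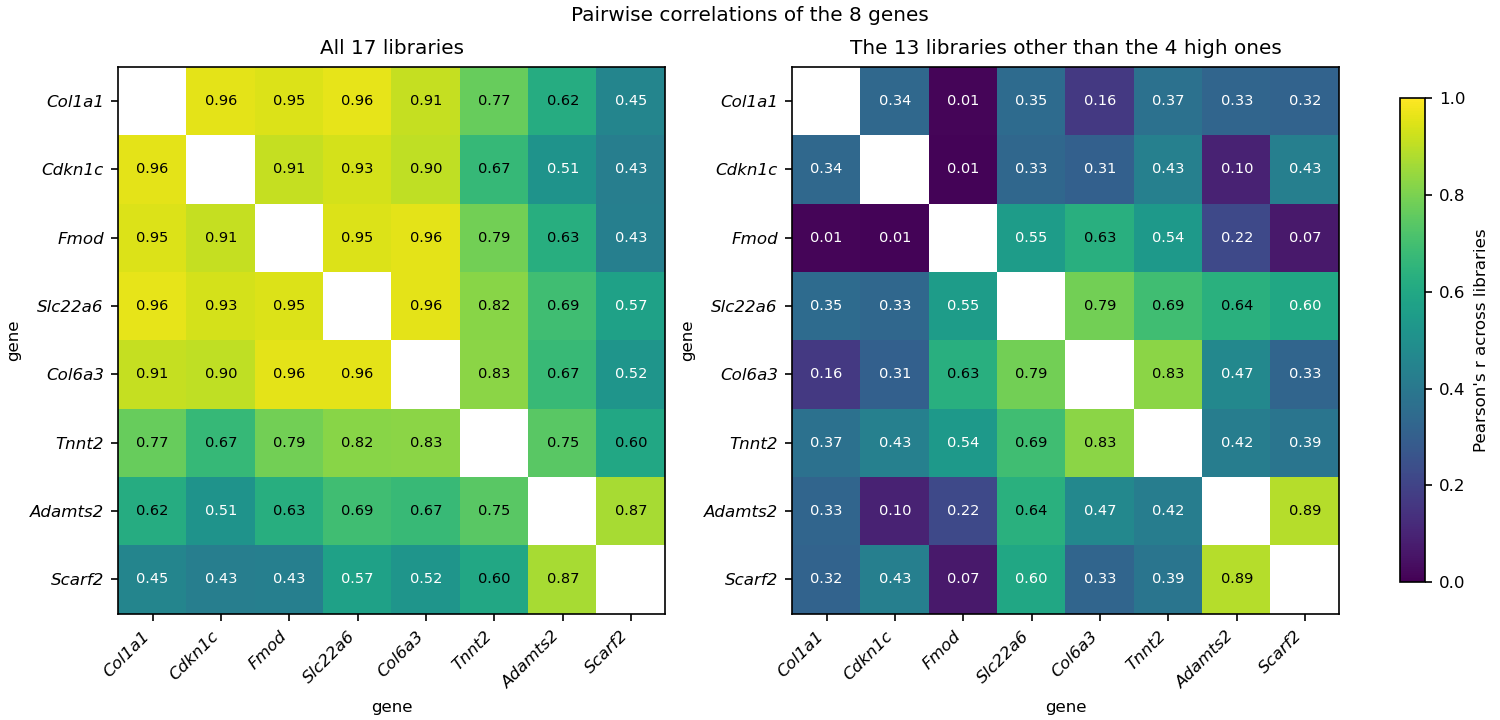
Pearson's r between every pair of the 8 genes (both axes list the genes; colour and printed value give r, from 0 to 1), over all 17 libraries on the left and over the 13 libraries other than the 4 high ones on the right. The block of Col1a1, Cdkn1c, Fmod, Slc22a6 and Col6a3 is at 0.90 or above on the left and between 0.01 and 0.79 on the right, while Adamts2 and Scarf2 stay at 0.87 and 0.89.

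**Figure D3:**
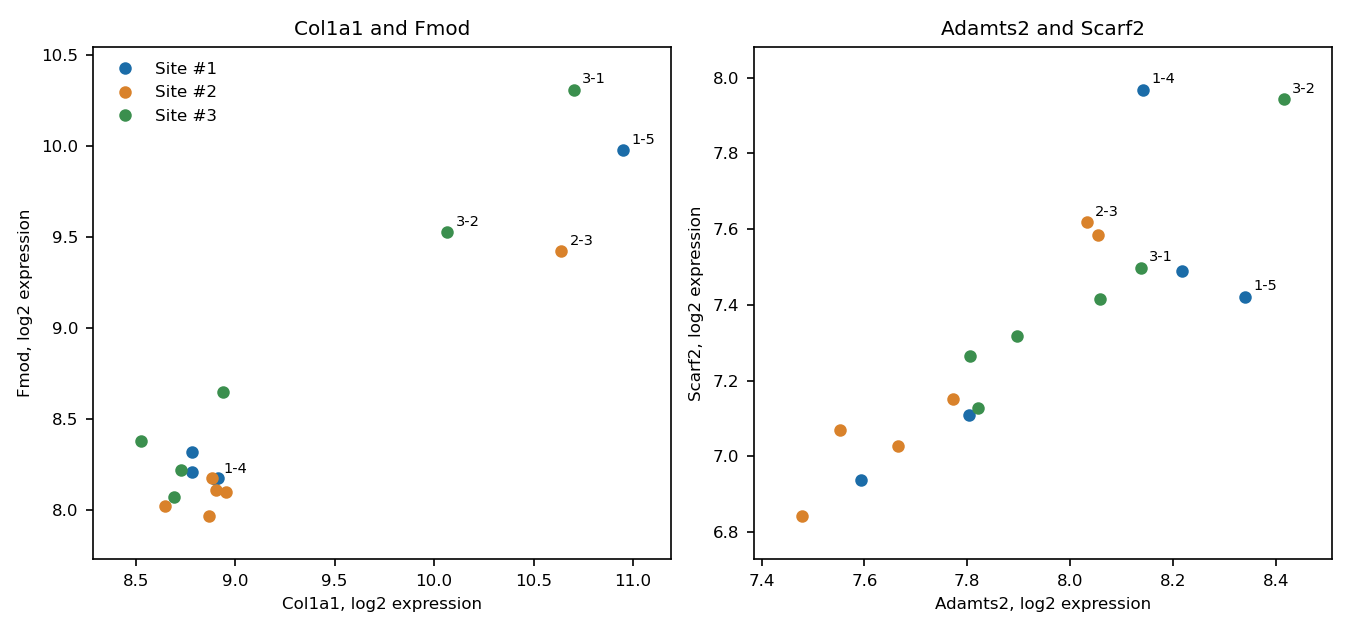
Fmod against Col1a1 on the left and Scarf2 against Adamts2 on the right (log2 expression on both axes), with 1 point per library coloured by site; labels give site and replicate number of the 4 high libraries and of replicate 4 of Site #1. On the left 4 libraries lie apart from the other 13, with r of 0.95 over all and 0.01 over the 13, and on the right the libraries form a continuous band with r of 0.87.

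The question of the study was whether the sites differ, and none of the 8 genes passed the test between any pair of sites. Each pair of sites was tested with limma across all 22664 genes. The p-values measure the spread between rats of a site, 1 library each. At an adjusted p under 0.05, 0 of the 8 genes passed in the comparison of Site #1 with Site #2, in which 0% of all genes passed. For Site #1 against Site #3, 0 of the 8 passed, and 0.101% of all genes did. For Site #2 against Site #3, 0 of the 8 passed, and 1.05% of all genes did. At an unadjusted p under 0.05 the count of the 8 was also 0 in each comparison, where 6.74%, 8.17% and 14.8% of all genes passed. The ranges of the sites overlapped for every one of the 8 genes in every comparison. The share of all genes with site ranges apart was not counted, so this overlap has no background beside it.

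The intervals of these differences were wide. The mean of Col1a1 was 9.27 ± 0.94 in the 5 rats of Site #1 (SD over rats, as in what follows), 9.15 ± 0.74 in the 6 of Site #2 and 9.28 ± 0.89 in the 6 of Site #3. The log2 difference of Col1a1 between Site #3 and Site #2 was 0.13, with a 95% confidence interval from -0.78 to 1.04. Fmod had the largest difference of the 8, with means of 8.30 ± 0.55 at Site #2 and 8.86 ± 0.88 at Site #3, a difference of 0.56 with an interval from -0.26 to 1.38 and an adjusted p of 0.531 (limma). Col6a3 was next, at 6.93 ± 0.45 and 7.38 ± 0.60, a difference of 0.45 with an interval from -0.14 to 1.04 and an adjusted p of 0.485 (limma). Adamts2, which varied least within sites, had 7.76 ± 0.24 at Site #2 and 8.02 ± 0.23 at Site #3, a difference of 0.26 with an interval from -0.01 to 0.53. Its limma p was 0.054 and its adjusted p 0.349. This was the smallest p of the 8 in any comparison.

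All 8 genes had a higher mean at Site #3 than at Site #2, by 0.05 to 0.56 with a median of 0.28, against a median of 0.00 over all genes tested. Their signs are not 8 separate observations, since the genes were chosen for moving together, and Site #3 holds 2 of the 4 high libraries. Between Site #1 and Site #3 the differences ran from 0.00 to 0.38 with a median of 0.12, and between Site #1 and Site #2 from -0.27 to 0.01 with a median of -0.12. For Col1a1, leaving out replicate 1 of Site #3 turned the difference between Site #3 and Site #2 to -0.16, and leaving out replicate 3 of Site #2 raised it to 0.43. Leaving out replicate 1 of Site #3 took the same difference of Fmod from 0.56 to 0.27, that of Col6a3 from 0.45 to 0.26 and that of Slc22a6 from 0.33 to 0.14. Leaving out replicate 2 of Site #3 took Tnnt2 from 0.30 to 0.14 and Scarf2 from 0.21 to 0.11. Leaving out replicate 3 of Site #2 raised Slc22a6 to 0.59.

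**Figure D4:**
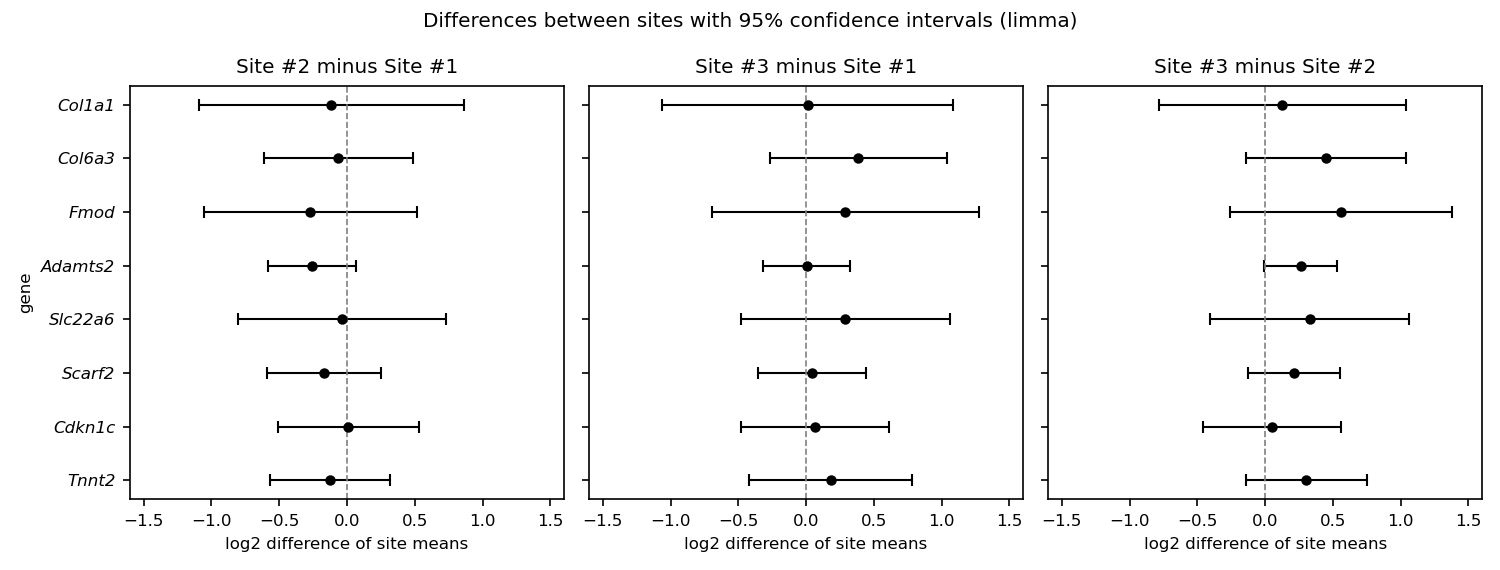
Differences between site means (log2, x axis) of the 8 genes (y axis) for the 3 pairs of sites, each point with its 95% confidence interval from limma. Every interval includes 0; for Site #3 minus Site #2 that of Col1a1 runs from -0.78 to 1.04 and that of Adamts2 from -0.01 to 0.53.

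Most of the spread of the 8 genes lay between rats of a site. The within-site SD of the 8 genes was 0.86 for Col1a1, 0.75 for Fmod, 0.66 for Slc22a6, 0.52 for Col6a3, 0.46 for Cdkn1c, 0.43 for Tnnt2, 0.33 for Scarf2 and 0.26 for Adamts2. These were larger than the SD of 97.7% to 99.9% of the 13679 genes that reached 1 CPM on average, whose median was 0.0887. Only 11 of the 13679 had a larger within-site SD than Col1a1. The share of the variance that lay between sites was 0.57% for Col1a1 and 0.44% for Cdkn1c. Among the 8 it was at most 21.9%, for Adamts2, against a median of 15.2% over the 13679 genes. Because the genes were chosen for how they varied, their spread is a description.

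To see which other genes followed the 8, each was scaled to mean 0 and SD 1 over the 17 libraries and the 8 were averaged. Of the 13671 other genes that reached 1 CPM on average, 368 (2.69%) had r of at least 0.7 with this mean, 111 (0.812%) had r of at most -0.7, and the median r was -0.03. Of the 368, 51 also had r of at least 0.7 over the 13 libraries. The balance of the directions depended on the scaling: with each library centred on its median the counts were 216 and 688, and with Spearman's rho they were 299 and 275. The nearest gene with a symbol was Mrc2, with r of 0.94. Mrc2 encodes Endo180, an endocytic receptor for collagen, and it stood at 9.57 to 9.82 in the 4 high libraries and at 8.99 to 9.38 in the other 13, where r was 0.61. Among genes with a symbol, Anxa1 (annexin A1), Adgra2 (an adhesion receptor of vessels), Kank2, Slc2a12 (a glucose transporter), Pdgfrb (the receptor for PDGF-B on mural cells and fibroblasts), Ajuba, Nxn, Aqp1 (a water channel) and Stom (stomatin) followed, with r from 0.79 to 0.87. Most genes had no symbol here, and by r Mrc2 had rank 19 and Stom rank 200 among the 13671. Of these, 57 (0.417%) had r of at least 0.9. Anxa1 had 0.21 over the 13, and Slc2a12 had -0.23. Pdgfrb kept 0.65.

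Of genes without a symbol here, ENSRNOG00000010362 had r of 0.97 and ENSRNOG00000001627 had 0.96, and both kept r above 0.8 over the 13 libraries, at 0.86 and 0.83. At the other end were Hp1bp3 (a heterochromatin protein) at -0.83, Usp47 (a deubiquitinase) at -0.79, Rhot1 (a mitochondrial GTPase) at -0.76, Gdpd1 at -0.75 and Kbtbd11 at -0.73. ENSRNOG00000027707 and ENSRNOG00000028366 had -0.83 and -0.82. Hp1bp3 stood at 13.33 to 13.40 in the 4 libraries and at 13.41 to 13.53 in the others, and Kbtbd11 stood at 11.36 to 11.44 and at 11.52 to 11.91.

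The rest of the collagen and matrix genes with a symbol followed the 8 in part. Of 7 other collagen genes, 2 had r of at least 0.7: Col26a1 at 0.92 and Col13a1 at 0.87, both with an approximate mean under 1 CPM. The list's median was 0.67, with Col4a1, a chain of the basement membrane collagen type IV, at 0.67 and Col11a2 at 0.40. Among 6 genes of collagen processing and receptors, Mrc2 and Tgm2 (a transglutaminase that crosslinks proteins) passed this limit, Tgm2 at 0.71, and the median was 0.37. Of 14 matrix glycoproteins and proteoglycans only Optc (opticin, like Fmod a small leucine-rich proteoglycan) did, at 0.76. This list ran in both directions, from -0.56 for Crim1 up to Optc, and its median was 0.19. Optc also had a mean under 1 CPM, and stood at 4.54 to 4.72 in the 4 high libraries and at 4.42 to 4.56 in the others. Of 3 genes of the brain's own matrix, none reached 0.7 in either direction: Ncan (neurocan) had r of -0.16, Tnr (tenascin-R) -0.44 and Spock1 (testican) -0.02. Over the 13 libraries r was 0.25 for Col26a1, 0.34 for Col13a1, 0.22 for Col4a1, 0.12 for Tgm2 and 0.12 for Optc. Mrc2 had 0.61 there, and Col11a2 rose to 0.56. The list medians over the 13 were 0.34, 0.18, 0.16 and 0.06, in the order given.

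Markers of cell types give the makeup beside which these values stand. Of 8 fibroblast-associated genes, 1 had r of at least 0.7, Slc47a1 at 0.70 with a mean under 1 CPM, and the median was 0.44. Their summed level was 25.0 to 30.9 CPM in the 4 high libraries and 22.8 to 30.3 CPM in the others. Most of that sum came from Rspo3, which had a mean of 19.7 CPM and r of 0.14. The broadest markers of meningeal fibroblasts, such as Dcn and Lum, had no identifier paired with a symbol and were not analysed here, so the meningeal name of the group was not checked beyond these genes. Of 9 endothelial genes, 2 reached 0.7, Nos3 at 0.77 and Esam at 0.74, with a summed level of 110 to 125 CPM in the 4 and 93.4 to 116 CPM in the others. Flt1 was the highest of these, with a mean of 56.0 CPM and r of 0.16. Over the 13 libraries r was 0.15 for Slc47a1, 0.48 for Nos3 and 0.47 for Esam. The mural cell marker Pdgfrb stood at 33.1 to 40.0 CPM against 24.4 to 34.1 CPM. The summed ranges of these lists overlapped between the 4 libraries and the others, but a sum mostly follows its highest genes. The part of other cell types in the pattern was not tested.

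The 3 choroid plexus markers differed from each other. F5 (coagulation factor V) stood at 12.04 in replicate 1 of Site #3. Aqp1 was at 7.74 there and at 6.07 or more in all 4 high libraries, above the other 13, which reached 5.70. Car12 was at 11.67 to 12.17 in the 4 and at 11.49 to 12.21 in the others. Its mean was 86.5 CPM, against 1.46 CPM for Aqp1 and 7.21 CPM for F5. The summed level of Aqp1, F5 and Car12 was 224 CPM in replicate 1 of Site #3. It was 83.5, 95.1 and 106 CPM in the other high libraries and 72.8 to 119 CPM in the 13. Without this library Aqp1 had r of 0.93 with the mean of the 8 and F5 had 0.25. Without the same library, the median r over the 28 pairs of the 8 genes was 0.82. Of 6 microglial, 4 astrocyte and 4 neuronal genes and the oligodendrocyte gene Cers2, none had r of at least 0.7 or at most -0.7, and the list medians were -0.07, -0.05 and -0.08, with Cers2 at 0.18. Over the 13 libraries the medians were 0.34, 0.28 and -0.15, with Cers2 at 0.14. The other collagens also had a median of 0.34 there. Both border macrophage genes had a mean under 1 CPM, and their r with the mean of the 8 genes was 0.49 for Cd163 and 0.68 for Cd209f. Over the 13 libraries r was -0.46 for Cd163 and 0.06 for Cd209f.

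**Figure D5:**
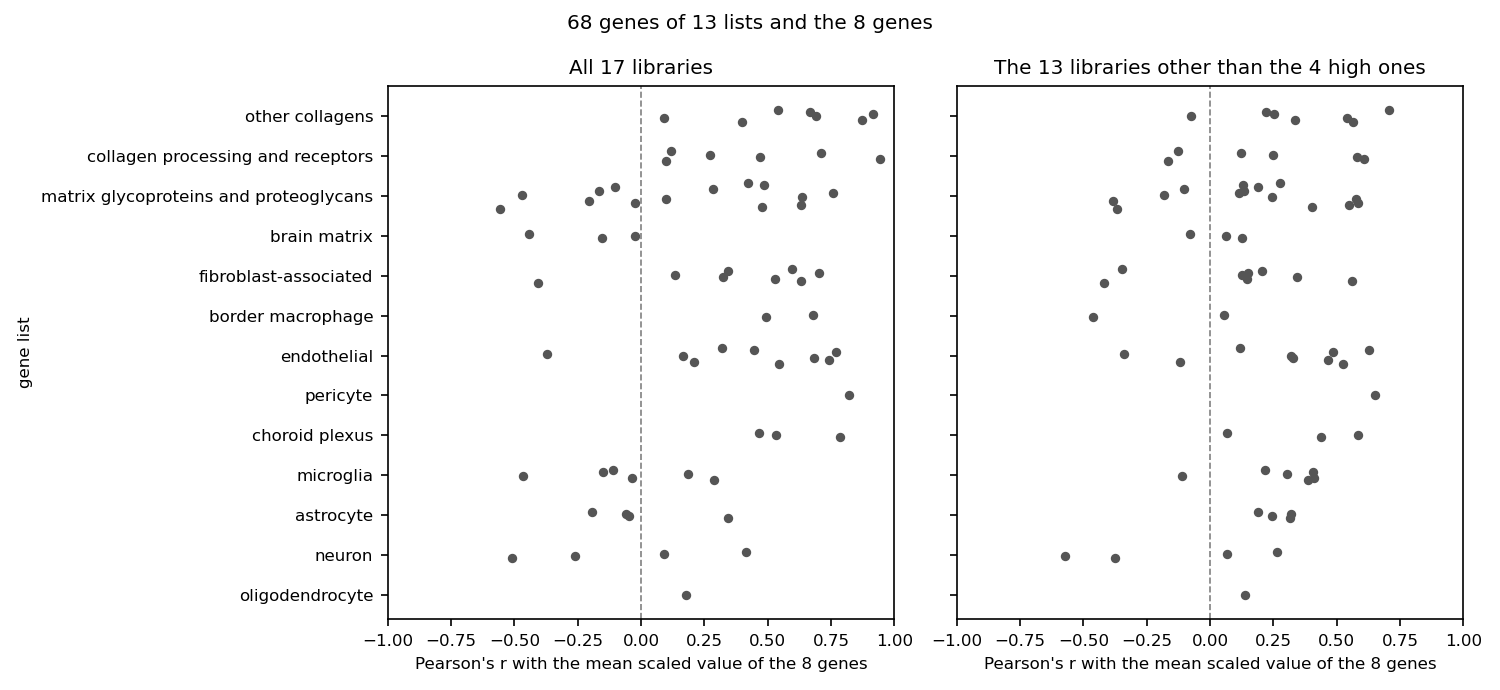
Pearson's r (x axis, -1 to 1) of each of 68 genes in 13 lists (rows, 1 point per gene) with the mean scaled value of the 8 genes, over all 17 libraries on the left and the 13 libraries other than the 4 high ones on the right. On the left the points furthest right are Mrc2 at 0.94 among the collagen processing genes and Col26a1 at 0.92 among the other collagens, while microglial, astrocyte and neuronal genes scatter around 0. On the right Mrc2 is at 0.61 and Col26a1 at 0.25.

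Between sites, 0 of these 68 genes passed an adjusted p under 0.05 in any comparison (limma). At an unadjusted p under 0.05, 10, 8 and 17 of the 68 passed for Site #1 against Site #2, Site #1 against Site #3 and Site #2 against Site #3, which is 14.7%, 11.8% and 25% of the list against 6.74%, 8.17% and 14.8% of all genes. For the 7 other collagens this count was 0 in each comparison, and their median log2 difference lay between -0.02 and 0.02. Only 2 of these 7 reached 1 CPM on average, and differences of low genes are understated in these values.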

How the data were processed

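Expression was measured by RNA-Seq in 1 hippocampal library from each of 17 rats. Reads were trimmed by the authors (Trimmomatic), mapped to rn6 (HISAT2) and assigned to Ensembl genes (featureCounts). DESeq2 was also used by the authors, per the labels. The deposited values are log2 expression per gene and library, and how they were normalized is not given in the sources used here. They hold no counts, so depth is unknown and precision is limited by how many rats there were. Spread is compressed for low genes: the median SD was 0.013 for genes with a mean under 5. It was 0.099 for genes with a mean of 5 to 8 and 0.091 for genes with a mean of 8 or more.

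Of 32494 genes, 9830 had the value 0 in every library and were dropped; no other filter and no pseudocount was used. The sites were compared 2 at a time with limma 3.58.1 in R 4.3.3 (two-sided, moderated with a mean-variance trend), with Benjamini-Hochberg adjustment over the 22664 remaining genes and a threshold of 0.05. The script was tested on simulated data. An approximate CPM, 2 raised to the deposited value and scaled to a common sum, served as a filter (mean of at least 1, 13679 genes) and for summed marker levels. Correlations used the log2 values in Python 3.11.15 with pandas 2.3.3.

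The 8 genes and all lists were chosen with earlier results of these data known. Symbols came from pairs of identifier and symbol in the supplementary tables of the study, which named 1798 identifiers, 1436 of them tested. Genes were named by this rule: all 8 genes; list genes past the limma threshold or with r of at least 0.7 or at most -0.7 with the mean scaled value; the 10 named genes with the highest r and the 5 with the lowest at a mean CPM of at least 1; and 2 genes without a symbol at either end. Replicate numbers recur at each site but mark different rats, so the replicate block was only an alternative. The other alternatives were a CPM filter, all libraries in 1 fit, other eBayes settings, library weights, other normalizations, Spearman's rho, a linear scale, subtracted site means and left-out libraries. The RRBS libraries of the study were not analysed here.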

Additional observations from a re-analysis of the deposited data

Results flagged for a closer look

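Each gene named above was looked at in each site for a library whose gap to the nearest other library of the site took up more of the site's range than Dixon's 95% limit allows. Chance gives such a library in about 1 of 20 groups, but this rate does not apply here, since the 8 genes were selected on these values and the other genes for their likeness to them; the values are a description. Among the 24 combinations of the 8 genes and the sites, 10 were past this limit, all with a high library. At Site #1 the library was replicate 5, with a gap that took up 0.939 of the range for Col1a1, 0.797 for Col6a3, 0.918 for Fmod and 0.807 for Slc22a6. At Site #2 it was replicate 3, with 0.845 for Col1a1, 0.83 for Col6a3, 0.856 for Fmod, 0.826 for Slc22a6, 0.868 for Cdkn1c and 0.679 for Tnnt2. At Site #3, where 2 libraries were high, none of the 8 genes passed.

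Among the other named genes, the same replicate 3 of Site #2 stood apart for Mrc2 (0.761), Anxa1 (0.858), Slc2a12 (0.768), Aqp1 (0.79), Col13a1 (0.827), Col26a1 (0.686), ENSRNOG00000010362 (0.791) and ENSRNOG00000001627 (0.773). Replicate 5 of Site #1 did for Adgra2 (0.823) and Nos3 (0.774), and replicate 1 of Site #3 for Ajuba (0.674), Tgm2 (0.679) and Aqp1 (0.728).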

How the results depend on the processing

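None of the 8 genes passed the threshold under any of 8 other settings or with any library left out, and the smallest adjusted p was 0.222 (limma). Of the 24 differences between sites, 12 kept their direction throughout. Leaving out 1 library moved the difference of Site #2 minus Site #1 from -0.49 to 0.082 for Fmod, -0.41 to 0.30 for Col1a1, -0.30 to 0.25 for Slc22a6, -0.25 to 0.15 for Col6a3, -0.22 to 0.084 for Tnnt2 and -0.17 to 0.20 for Cdkn1c; in each the highest value came without replicate 5 of Site #1, and the lowest without replicate 3 of Site #2 except for Tnnt2, without replicate 1 of Site #1. For Site #3 minus Site #1 the ranges were -0.069 to 0.19 for Scarf2, -0.27 to 0.43 for Col1a1, -0.12 to 0.26 for Cdkn1c and -0.10 to 0.083 for Adamts2, and for Site #3 minus Site #2 they were -0.16 to 0.43 for Col1a1 and -0.13 to 0.23 for Cdkn1c. Library weights turned Site #2 minus Site #1 to 0.036 for Col1a1 and 0.062 for Slc22a6, and quantile normalization turned Site #3 minus Site #1 to -0.00022 for Col1a1 and -0.010 for Adamts2, which median centring put at -0.0020. The cause was not tested.

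Replicate numbers did not pair the rats: the mean correlation of same-numbered deviations was -0.003, -0.171 and 0.030 in the 3 comparisons. With the replicate block, Slc22a6 had 0.0014 for Site #2 minus Site #1 and Adamts2 -0.0040 for Site #3 minus Site #1, and the genes called over the whole table fell from 23 to 0 for Site #1 vs Site #3 and from 239 to 43 for Site #2 vs Site #3. All libraries in 1 fit gave 36 for the former, and the CPM filter 482 for the latter. Leaving out 1 library gave 0 to 1 genes for Site #1 vs Site #2, 9 (without replicate 3 of Site #3) to 30 for Site #1 vs Site #3, and 81 (without replicate 6 of Site #3) to 333 for Site #2 vs Site #3.

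The median r among the 8 genes was 0.71 to 0.82 with 1 library left out, 0.38 over the 13 libraries and 0.25 over these less replicate 6 of Site #3, both sets chosen after the data were seen. The 368 genes that followed the 8 became 216 with median centring and 214 without replicate 5 of Site #1 and replicate 1 of Site #3, and 297 to 408 with 1 library left out, while the 111 genes at r of at most -0.7 became 688 with median centring and 275 with Spearman's rho. The values keep no counts, so the effect of depth was not tested.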

Other observations

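The genes nearest to each of the 8 differed between them; those named here beyond the genes above were chosen after their values were seen, over the 17 libraries and among genes with a symbol. Anxa1 was nearest to Col1a1 (r of 0.94) and Cdkn1c (0.95), Mrc2 to Fmod (0.93) and Slc22a6 (0.92), and Slc2a12 to Col6a3 (0.89). Adamts2 was nearest to Pald1 (0.90), followed by Ctgf, a matricellular protein, at 0.83 and Pdgfrb at 0.82. Scarf2 was nearest to Ntsr1, the neurotensin receptor (0.87), and Pomc, the precursor of melanocortins and endorphin (0.86). Tnnt2 was nearest to Lrrc43 (0.82) and Mrc2 (0.79). The number of genes with r of at least 0.7 ran from 190 for Scarf2 and 221 for Adamts2 to 351 for Col6a3.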
